A study of Mus musculus with 21 samples.

Results

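The 6 libraries described here are 3 of Mre11 ATLD mammary organoids at day 28 after activation of the neuT oncogene and 3 of ATLD organoids at day 0, chosen by their labels from the 21 libraries of the series. They are primary mouse mammary organoids, whose cell type is labelled mammary epithelia. Both compared groups carry the homozygous Mre11ATLD1/ATLD1 genotype, so it does not separate them. The study asked how the DNA damage response of mammary epithelium behaves after oncogene activation, in ATLD organoids and in WT organoids, at days 0, 14 and 28. ATLD day 14 (3 libraries) and WT days 28, 14 and 0 (3 original libraries each) are used below only to place the day 28 values, and the other 3 libraries are resequenced runs of WT replicate 1.

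The labels do not give the mouse strain or age, the promoter that drives neuT, or how activation was brought about, and no ATLD culture without neuT at day 28 is among the samples. Time in culture and oncogene activation therefore cannot be told apart in the differences between day 28 and day 0. Nothing in the labels says that replicates came from separate animals or cultures, so p-values measure only the spread between these libraries, which may be technical. Because whole organoids were measured, fewer cells of a type and less RNA per cell cannot be told apart either.

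The Mre11 complex, built of Mre11, Rad50 and Nbn, senses DNA double-strand breaks, trims their ends and activates the kinase Atm. ATLD, ataxia-telangiectasia-like disorder, is the human disease caused by hypomorphic Mre11 alleles. neuT is an activated form of the receptor tyrosine kinase Erbb2, which drives mammary tumours through RAS-ERK and PI3K signalling. Mammary ducts hold an inner luminal layer, with milk-forming progenitors and hormone-sensing cells, and an outer contractile basal layer.

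Values are counts of reads per gene scaled by library size and TMM factors to CPM, the usual depth-scaled read count. The 6 libraries held 46331204 to 51757203 counts each. A gene was called when edgeR's quasi-likelihood test, fitted to all 18 original libraries and 18684 genes, gave a Benjamini-Hochberg adjusted p under 0.05. Fold changes are log2, day 28 over day 0, with their standard error after the ± sign. That error was derived from the test, as the absolute log2 fold change over the square root of its F statistic.

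The labelled genotype and tissue were checked first. Mre11a (ENSMUSG00000031928, chr9:14784654-14837123, mm10 build) had 14.8, 16.4 and 14.7 CPM in ATLD day 28 libraries, against 14.9, 13.9 and 15.3 CPM in ATLD day 0 libraries, a log2 fold change of 0.06 ± 0.10 (adjusted p = 0.728). Gene counts do not show the ATLD1 allele, so the level of Mre11a checks no label here. Erbb2, the gene from which neuT derives, had 76.2, 71.6 and 106 CPM at day 28, against 113, 82.4 and 75.6 CPM at day 0, and the groups overlapped. The counts do not separate neuT from Erbb2.

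Luminal keratins and adhesion genes were plentiful on both days. Krt8 had 1363, 1154 and 1002 CPM at day 28, against 1570, 1706 and 1409 CPM at day 0. Epcam, an epithelial surface protein, had 1237, 1088 and 1126 CPM at day 28, against 965, 997 and 1111 CPM at day 0. Neither was called. The basal keratin Krt5 fell, with 826, 739.6 and 806 CPM at day 28, against 1665, 1493 and 1708 CPM at day 0 (-1.04 ± 0.25, adjusted p = 0.00474). Markers of other cell types were checked as well. Ptprc, Adgre1, Cd79a, Cdh5 and Adipoq, which define leukocytes, macrophages, B cells, endothelium and adipocytes, did not reach the count filter. Of the 12 endothelial markers 8 were tested, with summed levels of 21.1 to 30.1 CPM at day 28, against 26.3 to 35.2 CPM at day 0, and 1 rose: Kdr, a receptor for VEGF, with 15 counts over the 3 day 28 libraries, against 0 over the 3 day 0 libraries. The 2 tested lymphocyte markers were not called by edgeR or DESeq2 and had no unadjusted p under 0.05, and 8 of the 12 had no count in the 6 libraries. Summed adipocyte markers (3 of 10 tested, 1 rose) stood at 3.92 to 4.04 CPM at day 28, against 1.56 to 2.28 CPM at day 0, and summed lung epithelium markers (8 of 10 tested, 1 rose and 1 fell) at 30.5 to 35.4 CPM at day 28, against 20.7 to 27.6 CPM at day 0. Schwann and neural markers (10 tested, 1 rose and 2 fell), most of whose sum is the transcription factor gene Sox10, summed to 659 to 806 CPM at day 28, against 453 to 485 CPM at day 0. Summed fibroblast markers stood at 784 to 993 CPM at day 28, against 511 to 662 CPM at day 0, and summed myeloid markers, nearly all of the sum being Cd14, at 777 to 879 CPM at day 28, against 278 to 312 CPM at day 0. Of all genes tested 14.1% rose and 15.7% fell, and the part of any such cells in the results was not tested.

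Between day 28 and day 0, 5568 of 18684 genes were called, or 29.8%. Of these, 2634 rose (14.1%) and 2934 fell (15.7%), and the median over all genes tested was -0.02. At least 2-fold changes were called for 941 genes that rose and 1232 that fell, and at least 8-fold changes for 68 and 92. In 8305 genes (44.4%) the day 28 libraries did not overlap the day 0 libraries, and 5314 of these (28.4% of all genes) were also called. Along the first principal component of the 9 ATLD libraries, which held 43.5% of the variance, day 28 libraries lay between 45.1 and 55.6, day 14 libraries between -12.4 and 2.29, and day 0 libraries between -50.9 and -39.9.

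**Figure D1:**
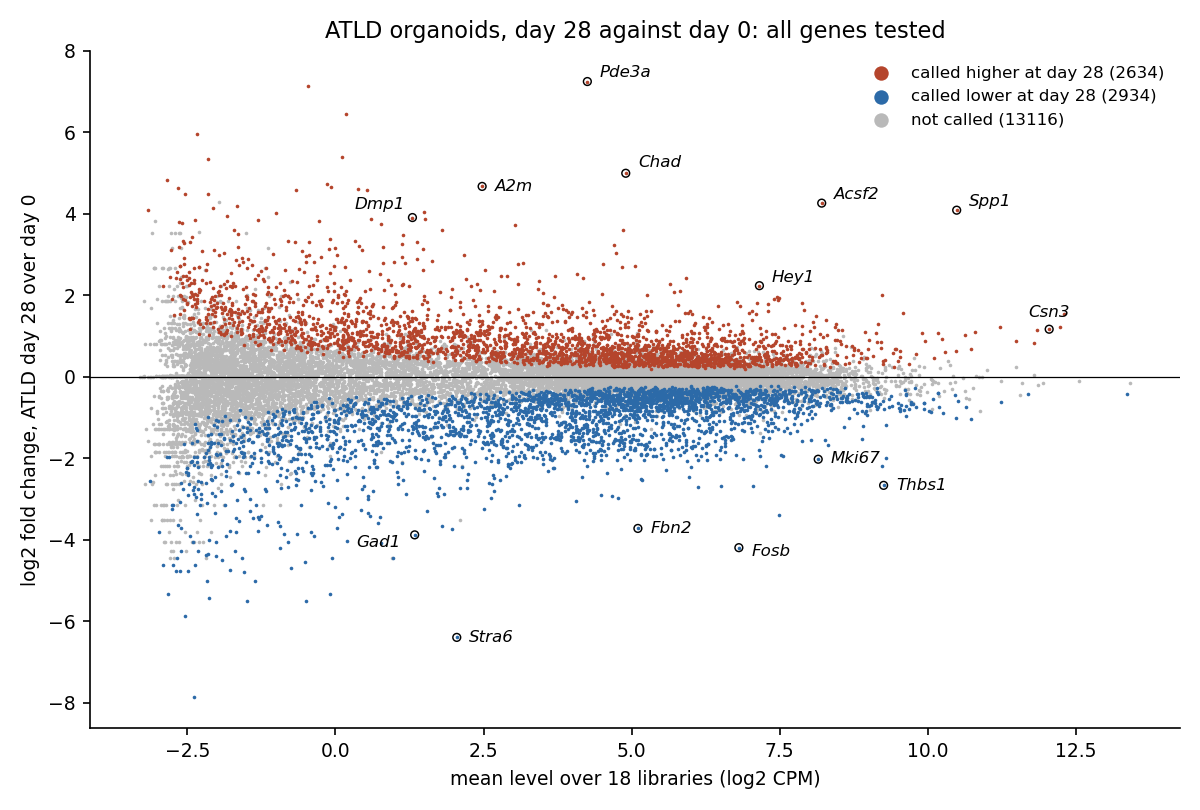
Log2 fold change (ATLD day 28 over ATLD day 0, vertical axis) against mean log2 CPM (horizontal axis) for 18684 genes, 1 point a gene. The 2634 genes that rose are in one colour, the 2934 that fell in another and genes not called in grey, with 14 genes labelled, among them Pde3a at 7.25 and Stra6 at -6.39.

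Genes are named below where they had the 12 largest rises or 12 largest falls among called genes with a mean level of at least 1 log2 CPM and groups that did not overlap, or the largest changes in their list. Any other gene given with a value was chosen after its values were seen. Chad, Spp1 and Dmp1, which encode secreted or matrix proteins of bone and cartilage, were among the 12 largest rises. Chad (chondroadherin, a cartilage matrix protein, ENSMUSG00000039084, chr11:94565047-94569127) had 56.1, 39.4 and 50.8 CPM at day 28, against 1.39, 1.66 and 1.53 CPM at day 0 (4.998 ± 0.305, adjusted p = 8.51e-09). Chad lies within the span of Acsf2 on the opposite strand, and how strand entered the counting is not given in the sources used here, so reads of the pair may not be fully separated. Acsf2, an acyl-CoA synthetase (ENSMUSG00000076435, chr11:94557102-94601871), had 755, 630.2 and 651 CPM at day 28, against 32, 33.4 and 40.6 CPM at day 0 (4.26 ± 0.18, adjusted p = 2.04e-10). Spp1 (osteopontin, a secreted phosphoprotein of bone and milk, ENSMUSG00000029304, chr5:104435118-104441050) had 3603, 3790 and 3108 CPM at day 28, against 205, 181 and 229.8 CPM at day 0 (4.09 ± 0.15, adjusted p = 7.43e-11). Its neighbour Dmp1, dentin matrix protein, had 5.42, 5.31 and 6.09 CPM at day 28, against 0.577, 0.201 and 0.327 CPM at day 0 (3.91 ± 0.31, adjusted p = 7.39e-08). In each of these 4 genes every day 28 library was above every day 0 library, as the rule required.

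Pde3a, a phosphodiesterase that breaks down cyclic AMP, was almost absent at day 0: it had 2.03, 2.63 and 3.24 CPM at day 28, against 0.0214, 0.0224 and 0 CPM at day 0. That is 354 counts at day 28, against 2 counts at day 0, a 180.2-fold ratio with an exact 95% interval of 49.5 to 1494 that covers counting error only. A2m (alpha-2-macroglobulin, a secreted protease trap) had 21.1, 22.1 and 30.6 CPM at day 28, against 1.22, 0.917 and 0.742 CPM at day 0 (4.67 ± 0.23, adjusted p = 9.73e-10). The groups overlapped in neither gene, as the rule required. The mitochondrial thioesterase Them5 had 129, 133 and 108 CPM at day 28, against 7.69, 10.6 and 12 CPM at day 0 (3.61 ± 0.22). Ccn5, a matricellular protein, had 128, 93.9 and 111 CPM at day 28, against 12.9, 12.9 and 9.64 CPM at day 0 (3.23 ± 0.21). The other 4 of the 12 largest rises were Ckb (brain-type creatine kinase, 3.74 ± 0.45), Maob (monoamine oxidase B, 3.60 ± 0.18), Mmp3 (the matrix protease stromelysin, 3.48 ± 0.30) and Itga7 (a laminin-binding integrin chain, 3.31 ± 0.34). All 4 had an adjusted p under 0.05, which for Mmp3 was 2.14e-07.

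The largest fall under this rule was that of Stra6, the cell-surface receptor for retinol uptake (ENSMUSG00000032327, chr9:58063788-58153996). It had 0.0678, 0.147 and 0.0233 CPM at day 28, against 8.24, 6.13 and 6.85 CPM at day 0 (-6.39 ± 0.60, adjusted p = 4.85e-07). Adh7, an alcohol dehydrogenase that oxidises retinol, had 0.588, 0.569 and 0.653 CPM at day 28, against 5.51, 5.79 and 6.33 CPM at day 0 (-3.28 ± 0.23, adjusted p = 2.76e-08). In both genes every day 28 library was below every day 0 library. Fosb, a subunit of the AP-1 transcription factor (ENSMUSG00000003545, chr7:19302696-19310051), had 3.57, 2.51 and 15.5 CPM at day 28, against 162, 109 and 122 CPM at day 0 (-4.19 ± 0.48, adjusted p = 4.56e-06), and its day 28 replicate 3 was the highest of that day. Gad1, which makes the transmitter GABA, had 0.429, 1.18 and 0.42 CPM at day 28, against 8.52, 10.3 and 11.4 CPM at day 0 (-3.88 ± 0.39, adjusted p = 9.87e-07). Abcb1b, a drug efflux pump, had 0.249, 0.316 and 0.443 CPM at day 28, against 4.12, 4.34 and 4.25 CPM at day 0 (-3.65 ± 0.23, adjusted p = 1.01e-08). The groups did not overlap in any of these 5 genes, as the rule required.

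The remaining large falls were in matrix and adhesion genes. Fbn2, which encodes the microfibril protein fibrillin 2 (ENSMUSG00000024598, chr18:58008623-58210487), had 4.59, 5.46 and 10.3 CPM at day 28, against 139.6, 74.8 and 52.6 CPM at day 0 (-3.72 ± 0.38, adjusted p = 1.18e-06). Cd109, a membrane-anchored TGF-beta co-receptor, had 1.24, 2.34 and 4.5 CPM at day 28, against 37.9, 28.5 and 17.6 CPM at day 0 (-3.38 ± 0.39, adjusted p = 5.22e-06). Xylt1 (which starts glycosaminoglycan chains), the adhesion proteins Sdk1 and Tenm3, and Ildr2 (a protein of tricellular junctions) fell by 3.72, 3.24, 3.14 and 3.04. All 6 of these genes share an order of libraries within each day: replicate 3 was highest at day 28 and replicate 1 at day 0.

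That order runs through long genes. Length here is the summed exon length in the deposited table. Of 301 genes longer than 16000 bases, 27.9% fell and 5.65% rose, with a median of -0.33, and of 2240 genes between 8000 and 16000 bases 21.7% fell and 10.4% rose, with a median of -0.14. In the longest class the median deviation from each gene's mean was -0.49, -0.12 and 0.10 in the 3 day 28 libraries, against 0.42, 0.11 and -0.08 in the 3 day 0 libraries, so the groups overlapped. Fbn2 is 13215, Sdk1 11087, Tenm3 10237, Xylt1 9651 and Ildr2 8251 bases long. The part of this trend in their falls was not tested.

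**Figure D2:**
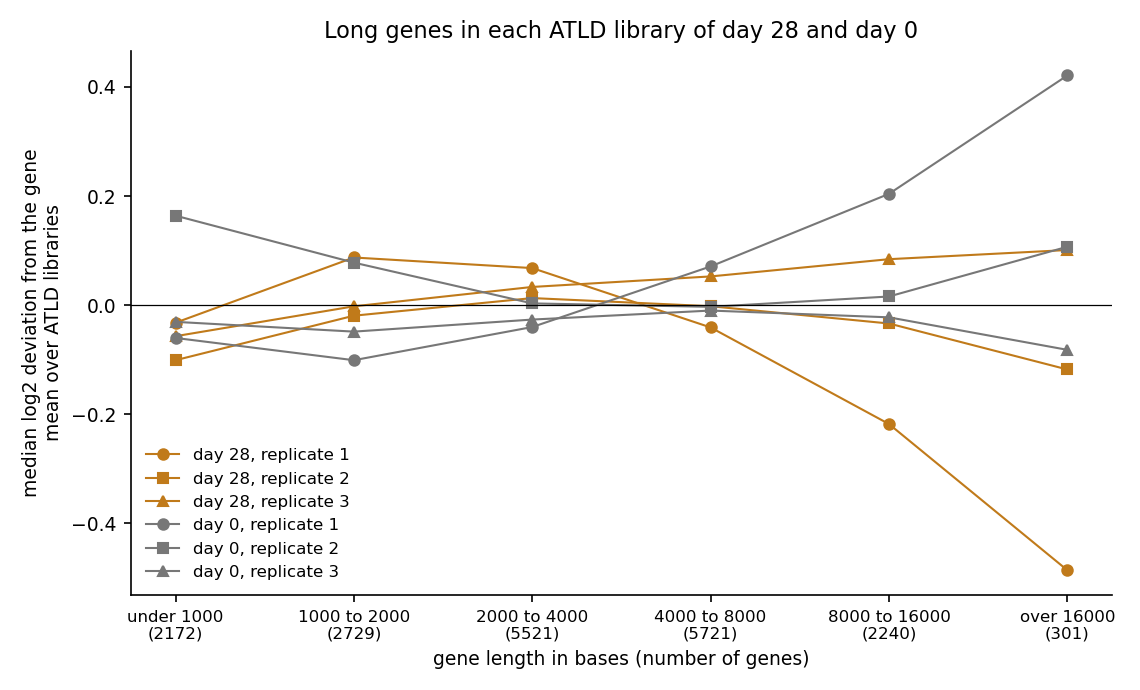
Median log2 deviation of genes from their mean over the 9 ATLD libraries (vertical axis) in 6 classes of gene length in bases (horizontal axis), 1 line a library, day 28 orange and day 0 grey. The lines spread with length, from -0.49 in day 28 replicate 1 to 0.42 in day 0 replicate 1 in genes over 16000 bases.

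Genes of cell division fell together. All 30 tested members of a list of G2 and mitosis genes fell, where 15.7% of all genes tested fell. Their median was -1.65, beside -0.02 over all genes tested. The summed level of the list was 950.0 to 1155 CPM at day 28, against 3238 to 3789 CPM at day 0. Mki67, a proliferation marker that coats mitotic chromosomes (ENSMUSG00000031004, chr7:135689784-135716361), had 89.6, 102 and 94 CPM at day 28, against 446, 330.5 and 380.0 CPM at day 0 (-2.02 ± 0.18, adjusted p = 2.49e-07). Ccna2, the cyclin of S phase and G2, had 51.2, 50.5 and 39.6 CPM at day 28, against 172, 169 and 190.0 CPM at day 0 (-1.91 ± 0.13, adjusted p = 1.96e-08). Cenpf and Cenpe, proteins of the kinetochore, fell by 2.20 and 2.02. Mki67 and Cenpf are long genes, at 10061 and 15433 bases, while Ccna2 has 4083 bases. The smallest fall in the list was that of Ccnb2, a mitotic cyclin, at -1.22 ± 0.14. The day 28 and day 0 libraries did not overlap in any of the 30 genes, nor did they in 44.4% of all genes tested.

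Many mitotic promoters carry a CHR element (TTTGAA, or TTCGAA) downstream of CCAAT boxes, through which the DREAM complex holds them off in resting cells. In RefSeq windows of 300 bases around the gene start, 250 before and 50 after, build GRCm38.p6, 19 of the 25 G2 and mitosis genes with an entry held a CHR on either strand (76%), beside 21.7% of 27025 genes. CCAAT, on either strand, was in 19 of the 25 (76%), beside 41.1% of all genes. Of 24 S phase genes with an entry, 5 held a CHR (20.8%) and 14 a CCAAT (58.3%). The windows of Bub1 (a spindle checkpoint kinase, chr2:127831810-127832109, minus strand), Mki67 (chr7:135716330-135716629, minus strand) and Cenpf (chr1:189688037-189688336, minus strand) are shown because their genes fell and carry both motifs. They are read 5′ to 3′ on the gene's strand, with CHR and CCAAT matches of either strand in capitals. A match is a description of the letters and not a measured binding site.
Bub1: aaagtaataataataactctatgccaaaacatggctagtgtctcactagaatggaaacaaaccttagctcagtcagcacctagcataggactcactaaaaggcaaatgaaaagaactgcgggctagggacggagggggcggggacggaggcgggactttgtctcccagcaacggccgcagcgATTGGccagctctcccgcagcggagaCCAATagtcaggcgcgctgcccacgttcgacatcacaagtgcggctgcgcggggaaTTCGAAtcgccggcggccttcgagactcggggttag
Mki67: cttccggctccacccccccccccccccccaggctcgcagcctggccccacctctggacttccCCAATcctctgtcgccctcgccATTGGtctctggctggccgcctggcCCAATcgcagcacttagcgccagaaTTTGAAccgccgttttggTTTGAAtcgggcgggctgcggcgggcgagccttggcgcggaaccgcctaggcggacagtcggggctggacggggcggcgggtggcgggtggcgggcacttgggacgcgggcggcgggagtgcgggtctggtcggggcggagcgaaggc
Cenpf: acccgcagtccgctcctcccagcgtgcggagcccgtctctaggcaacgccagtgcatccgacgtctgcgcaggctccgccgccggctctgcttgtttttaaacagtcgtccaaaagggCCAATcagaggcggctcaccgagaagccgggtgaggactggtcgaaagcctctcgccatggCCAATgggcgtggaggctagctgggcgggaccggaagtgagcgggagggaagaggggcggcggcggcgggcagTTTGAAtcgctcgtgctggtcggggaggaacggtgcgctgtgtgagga

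Replication genes followed the same direction. Of 30 tested genes of S phase and replication, 29 fell (96.7%) and none rose, beside 15.7% and 14.1% of all genes tested. Fen1, the flap endonuclease, was not called (-0.64 ± 0.48, adjusted p = 0.346). The list median was -1.38. Rrm2, the regulated subunit of ribonucleotide reductase, had 32.9, 29.3 and 23.2 CPM at day 28, against 95.6, 103 and 124 CPM at day 0 (-1.92 ± 0.12, adjusted p = 1.28e-08). Ccne2 (cyclin E2), Uhrf1 (which keeps DNA methylation through replication) and Mcm10 (a replisome factor) fell by 1.93, 1.88 and 1.86. The replicate order of long genes was not seen in Rrm2, whose lowest day 28 library was replicate 3.

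Of 39 genes of double-strand break repair and checkpoint signalling, 30 fell (76.9%) and none rose, beside 15.7% and 14.1% of all genes tested. The list median was -1.10. Brca1, which promotes repair by homologous recombination (ENSMUSG00000017146, chr11:101488764-101551955), had 9.24, 11 and 9.43 CPM at day 28, against 39.9, 31.6 and 38 CPM at day 0 (-1.88 ± 0.13, adjusted p = 2.90e-08). Polq, the polymerase of microhomology-mediated end joining, fell by 2.09, and Clspn, an adaptor of the kinase Chek1, fell by 1.76. The kinase genes Atm and Atr fell by 1.05 and 1.10. The partners of Mre11 were not called: Nbn had 38.8, 42.6 and 38.2 CPM at day 28, against 44, 49.8 and 55.3 CPM at day 0 (-0.32 ± 0.13, adjusted p = 0.0796). Rad50 had 60.7, 71.4 and 65.2 CPM at day 28, against 78.8, 75.9 and 88.9 CPM at day 0 (-0.30 ± 0.12, adjusted p = 0.0561). In the G2 and mitosis, S phase and break repair lists no member rose at an unadjusted p under 0.05 or by DESeq2 either. Over all processing alternatives, 0 to 2 break repair genes rose. Among end-joining genes, Prkdc, the DNA-dependent protein kinase, fell by 0.69 and Xrcc6, the Ku70 subunit, by 0.35, while Lig4 (0.22 ± 0.11) and Xrcc4 (0.23 ± 0.15) were not called. Transcription of Brca1 and Clspn is known to follow the cell cycle.

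Targets of p53 were called at shares not far from those of all genes. Of 31 tested, 4 rose (12.9%) and 7 fell (22.6%), beside 14.1% and 15.7% of all genes tested, and their median was -0.08. Ddit4, an inhibitor of mTOR signalling, had 236, 198 and 177 CPM at day 28, against 101, 93.5 and 86.5 CPM at day 0 (1.12 ± 0.18, adjusted p = 1.64e-04), and Gadd45a, a stress protein, rose by 1.06 ± 0.14. Ckap2, a spindle protein, and Pmaip1, the apoptosis activator Noxa, fell by 1.39 and 1.03. Cdkn1a, which encodes the cell cycle inhibitor p21, was not called: it had 183, 177 and 149 CPM at day 28, against 140.4, 135 and 151 CPM at day 0 (0.26 ± 0.11, adjusted p = 0.0932). Cdkn2a, the Ink4a and Arf locus, had 51.4, 36.7 and 33.2 CPM at day 28, against 36.3, 43 and 30.5 CPM at day 0 (0.14 ± 0.41, adjusted p = 0.823). The 7 p53 targets that fell became 11 with offsets for GC content and 13 with offsets for GC content and gene length.

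**Figure D3:**
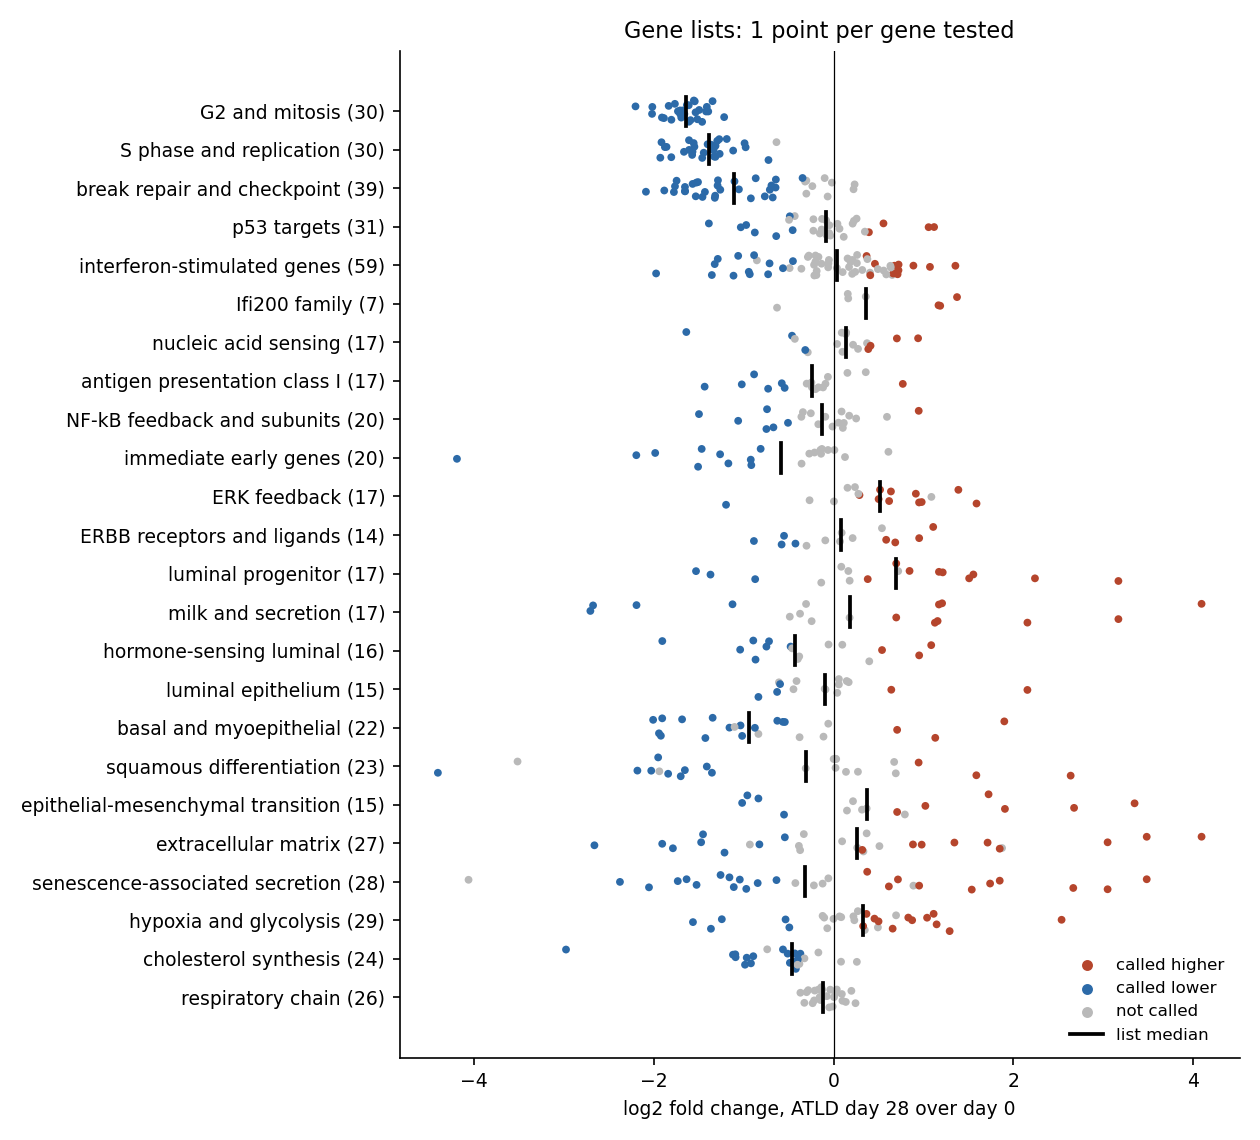
Log2 fold changes (ATLD day 28 over ATLD day 0, horizontal axis) of the tested members of 24 gene lists (rows), 1 point a gene, with the list median as a bar. The medians of G2 and mitosis, S phase and break repair lie left of 0, at -1.65, -1.38 and -1.10.

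Interferon-stimulated genes were also called in both directions, at shares not far from those of all genes. Of 59 tested among 60, 11 rose (18.6%), 13 fell (22%) and 35 did not pass, beside 14.1% and 15.7% of all genes tested, and the median was 0.04. Cxcl10, a chemokine for T cells (ENSMUSG00000034855, chr5:92346638-92348889), had 1.45, 1.28 and 0.957 CPM at day 28, against 8.99, 2.19 and 3.34 CPM at day 0 (-1.98 ± 0.50, adjusted p = 0.00666), with day 0 replicate 1 well above the other 2. Ifit3, which binds viral RNA in a complex with Ifit1, had 10.2, 6.83 and 6.11 CPM at day 28, against 23.2, 15.8 and 18.9 CPM at day 0 (-1.32 ± 0.37, adjusted p = 0.0116). Mx1, an antiviral GTPase, fell by 1.35. Ifi27l2a, a small interferon-induced membrane protein, rose, with 62.5, 34.7 and 63.1 CPM at day 28, against 22.6, 26.4 and 13.6 CPM at day 0 (1.35 ± 0.37, adjusted p = 0.0102). Isg15, a ubiquitin-like modifier, was not called: it had 142, 86.5 and 124 CPM at day 28, against 85.1, 77.7 and 61.7 CPM at day 0 (0.65 ± 0.27, adjusted p = 0.0794). Stat2, a transcription factor of interferon signalling, rose by 0.68 ± 0.16. The count of 13 that fell became 4 without day 0 replicate 1 and 8 without day 28 replicate 2.

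Values at day 14 lie beside these counts. Against day 0, 23 of the 59 genes rose by day 14 and none fell by edgeR, where 5.18% of all genes rose and 6.49% fell. Against day 14, none rose by day 28 by edgeR and 26 fell, where 8.25% of all genes rose and 9.05% fell. Both counts of 0 were also 0 at an unadjusted p under 0.05 and by DESeq2. The comparisons share their libraries, so these counts are not independent. Isg15 had 142, 86.5 and 124 CPM at day 28 and 139.7, 207 and 255 CPM at day 14, with a log2 fold change of -0.77 ± 0.27 between them (adjusted p = 0.0595). Cxcl10 had 1.45, 1.28 and 0.957 CPM at day 28 and 3.01, 4.45 and 6.79 CPM at day 14 (-1.94 ± 0.50, adjusted p = 0.0131). Ifi27l2a had 62.5, 34.7 and 63.1 CPM at day 28 and 62.8, 80.3 and 131 CPM at day 14 (-0.78 ± 0.36, adjusted p = 0.159).

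The interferon-stimulated response element was searched as GAAA, any 2 bases, GAAA, on both strands of the same windows. It was in 20 of the 46 interferon-stimulated genes with an entry (43.5%), beside 3.99% of all genes and 1 of the 25 G2 and mitosis genes (4%). The windows of Cxcl10 (chr5:92348840-92349139, minus strand) and Ifit3 (chr19:34583279-34583578, plus strand) are shown because both genes fell by day 28, with only the matches to this element in capitals.
Cxcl10: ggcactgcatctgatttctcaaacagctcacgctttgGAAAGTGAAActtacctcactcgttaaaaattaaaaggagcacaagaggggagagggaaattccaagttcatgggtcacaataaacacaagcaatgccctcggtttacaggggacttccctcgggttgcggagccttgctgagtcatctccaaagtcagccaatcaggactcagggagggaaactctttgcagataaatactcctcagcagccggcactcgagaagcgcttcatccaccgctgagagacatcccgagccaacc
Ifit3: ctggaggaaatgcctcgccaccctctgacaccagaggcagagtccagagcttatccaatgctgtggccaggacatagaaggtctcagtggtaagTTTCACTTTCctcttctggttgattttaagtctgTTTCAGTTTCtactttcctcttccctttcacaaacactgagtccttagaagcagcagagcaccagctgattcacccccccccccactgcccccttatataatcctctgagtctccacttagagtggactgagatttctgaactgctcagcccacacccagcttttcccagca

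Of 17 genes of nucleic acid sensing, 4 rose (23.5%) and 3 fell (17.6%), beside 14.1% and 15.7% of all genes tested. Cgas, which makes the messenger cGAMP from cytosolic DNA (ENSMUSG00000032344, chr9:78430526-78443237), had 3.32, 3.43 and 3.06 CPM at day 28, against 10.3, 9.08 and 11.2 CPM at day 0 (-1.64 ± 0.15, adjusted p = 5.03e-07). Tmem173, which encodes the cGAMP receptor STING (ENSMUSG00000024349, chr18:35733679-35740554), had 89.6, 82.8 and 86.5 CPM at day 28, against 44.1, 40.1 and 50.9 CPM at day 0 (0.94 ± 0.10, adjusted p = 1.33e-06). The groups did not overlap in either gene, nor did they in 44.4% of all genes tested. The 4 rises of the list became 2 without day 0 replicate 1. Dnase2a, the lysosomal DNase, rose by 0.70 ± 0.09, and the kinase Ikbke fell by 0.46. Of the Ifi200 family of DNA-binding proteins 7 of 14 were tested, and 3 rose (42.9%). Ifi204 had 28.4, 22.6 and 24.6 CPM at day 28, against 10.4, 9.14 and 9.62 CPM at day 0 (1.37 ± 0.20, adjusted p = 5.84e-05), while Ifi211 and Ifi205 rose by 1.19 ± 0.17 and 1.17 ± 0.24. These genes are near-identical neighbours, so their reads may be split between copies. Zbp1, a sensor of Z-form nucleic acid that can start necroptosis, rose, with 47.1, 36.8 and 43.8 CPM at day 28, against 28.6, 25.2 and 23.5 CPM at day 0 (0.72 ± 0.18, adjusted p = 0.0068), whereas its partner Ripk3 fell by 0.82.

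Of 17 class I genes of antigen presentation, 1 rose (5.88%) and 6 fell (35.3%), beside 14.1% and 15.7% of all genes tested. Nlrc5, the activator of class I transcription, had 1.88, 1.6 and 2.31 CPM at day 28, against 7.54, 4.23 and 3.86 CPM at day 0 (-1.44 ± 0.23, adjusted p = 1.46e-04), and at 8493 bases it is one of the longer genes. Psmb9 and Erap1, which cut peptides for loading, fell by 0.89 and 1.02, while H2-T23, a nonclassical class I chain, rose by 0.77 ± 0.23. Of 8 class II genes, 3 rose (37.5%) and 1 fell (12.5%). H2-DMb1, a chain of the peptide exchanger of class II, had 24.2, 21.6 and 22 CPM at day 28, against 8.18, 7.89 and 7.77 CPM at day 0 (1.51 ± 0.17, adjusted p = 3.90e-06). Cd74, the invariant chain, stood at 1.92, 1.79 and 1.61 CPM at day 28, against 3.74, 4.67 and 5.02 CPM at day 0, and fell by 1.33.

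Secreted factors of senescent and inflamed cells moved in both directions. Of 28 tested, 10 rose (35.7%) and 12 fell (42.9%), beside 14.1% and 15.7% of all genes tested, with a median of -0.32. The members that rose held matrix proteases and IGF-binding proteins. Mmp9 (gelatinase B) had 8.88, 13.8 and 11.5 CPM at day 28, against 2.39, 0.939 and 0.785 CPM at day 0 (3.05 ± 0.41, adjusted p = 2.62e-05). Igfbp5, which binds insulin-like growth factors and is known from mammary involution, had 6835, 6908 and 11150 CPM at day 28, against 3614, 2713 and 2260 CPM at day 0 (1.54 ± 0.19, adjusted p = 1.25e-05). The members that fell were mostly cytokines. Ccl20, a chemokine of epithelia, had 2.8, 3.48 and 2.59 CPM at day 28, against 12.8, 18.2 and 15.1 CPM at day 0 (-2.38 ± 0.19, adjusted p = 9.53e-08), and the chemokines Ccl5, Ccl2, Cxcl5, Cxcl3, Cxcl2 and Cxcl1 and the cytokines Il1a and Tnf fell as well, by 0.84 to 2.05. Il6 was not called (0.89 ± 0.33, adjusted p = 0.0545).

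Of 20 genes of NF-kB and its feedback, 1 rose (5%) and 6 fell (30%), beside 14.1% and 15.7% of all genes tested. With offsets for GC content and gene length 5 rose and 10 fell, and with offsets for GC content alone 2 rose and 10 fell. Nfkbiz, an inducible co-activator, had 31.1, 34.8 and 32.8 CPM at day 28, against 67.6, 65.2 and 73.3 CPM at day 0 (-1.06 ± 0.10, adjusted p = 2.75e-07), and the feedback inhibitors Tnfaip3, Tnip3 and Nfkbia fell by 0.75, 1.50 and 0.74. Traf1, an adaptor of TNF receptors, rose by 0.95 ± 0.18. The subunits Rela, Nfkb1, Nfkb2 and Relb were not called.

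Immediate early genes are the first to be transcribed after a stimulus. Of 20 tested, 10 fell (50%) and none rose by edgeR, beside 15.7% and 14.1% of all genes tested. None rose at an unadjusted p under 0.05 or by DESeq2 either, and the median was -0.58. Fos, an AP-1 subunit (ENSMUSG00000021250, chr12:85473890-85477273), had 212, 152 and 222 CPM at day 28, against 853, 957 and 878 CPM at day 0 (-2.19 ± 0.19, adjusted p = 1.85e-07). Atf3, a stress transcription factor, had 7.39, 7.08 and 7 CPM at day 28, against 29.9, 30.4 and 24.8 CPM at day 0 (-1.99 ± 0.15, adjusted p = 3.93e-08), and Klf6 fell by 1.51. The AP-1 subunits Junb (0.13 ± 0.60) and Fosl1 (0.61 ± 0.71) were not called.

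More of the listed feedback genes of ERK signalling rose than fell. Of 17 tested, 10 rose (58.8%) and 1 fell (5.88%), beside 14.1% and 15.7% of all genes tested, with a median of 0.52. Etv1, an ETS transcription factor, had 15.8, 23.2 and 20.3 CPM at day 28, against 6.58, 7 and 6.13 CPM at day 0 (1.59 ± 0.16, adjusted p = 1.34e-06). Ier3, an early response protein of ERK signalling, had 312, 271 and 248 CPM at day 28, against 137, 144 and 141 CPM at day 0 (0.98 ± 0.20, adjusted p = 0.00124). Lgals3, galectin 3, which the list also holds, rose by 1.39 ± 0.18, and Dusp6, the phosphatase of ERK, by 0.29 ± 0.09. Spry1, an inhibitor of receptor tyrosine kinase signalling, was the member that fell, by 1.20. The members Spry2, Spred1, Spred2, Etv4, Phlda1 and Il1rl1 were not called. Among 14 ERBB receptors and ligands, 4 rose and 4 fell (28.6% each). Areg, the EGFR ligand of mammary duct growth, had 27.9, 29.3 and 22.1 CPM at day 28, against 13.3, 13.7 and 14.1 CPM at day 0 (0.95 ± 0.13, adjusted p = 2.43e-05). The ligand Hbegf rose by 0.69 ± 0.10 and the ligand Nrg1 fell by 0.89. Erbb4, a receptor of the family, rose by 1.11 ± 0.33, with 4.18, 6.89 and 11.6 CPM at day 28, against 4.7, 3.82 and 1.99 CPM at day 0, and its groups overlapped. The 4 rises became 2 without day 0 replicate 3, and the 4 falls became 2 without day 28 replicate 1, day 28 replicate 2 or day 0 replicate 1.

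Luminal progenitor and milk genes moved in both directions, with more rises than falls. Of 17 luminal progenitor genes, 9 rose (52.9%) and 3 fell (17.6%), beside 14.1% and 15.7% of all genes tested, with a median of 0.70. Hey1, a transcription factor induced by NOTCH (ENSMUSG00000040289, chr3:8663359-8667256), had 296, 279 and 270.4 CPM at day 28, against 60.9, 59.7 and 58.6 CPM at day 0 (2.24 ± 0.10, adjusted p = 5.44e-10). Cd14, a co-receptor for bacterial lipopolysaccharide, had 876, 774 and 840.3 CPM at day 28, against 275, 308 and 293 CPM at day 0 (1.51 ± 0.16, adjusted p = 2.10e-06). Lcn2, an iron-scavenging secreted protein, had 13410, 12360 and 11200 CPM at day 28, against 4481, 5807 and 5660 CPM at day 0 (1.21 ± 0.16, adjusted p = 1.54e-05). The groups did not overlap in any of the 3, nor did they in 44.4% of all genes tested. Tspan8, a membrane tetraspanin, rose by 1.55 ± 0.15, and the integrin chain Itga2 and the receptor kinase Kit fell by 1.53 and 0.87. Elf5, the transcription factor of alveolar differentiation, was not called (0.09 ± 0.13, adjusted p = 0.655). Cd14 is also a myeloid marker. Of the 12 myeloid markers 6 had no count in the 6 libraries, and the myeloid genes Fcer1g and Csf1r rose while staying under 1 CPM in every library.

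Of 17 genes of milk and secretion, 8 rose (47.1%) and 4 fell (23.5%), beside 14.1% and 15.7% of all genes tested. The list median was 0.18. Csn3, kappa casein (ENSMUSG00000001622, chr5:87925579-87932665), had 12370, 11100 and 9278 CPM at day 28, against 3945, 4934 and 5670 CPM at day 0 (1.17 ± 0.18, adjusted p = 1.22e-04). Lalba, alpha-lactalbumin, had 1.58, 1.85 and 1.73 CPM at day 28, against 0.149, 0.134 and 0.284 CPM at day 0 (3.17 ± 0.37, adjusted p = 6.37e-06). Muc1, an apical mucin, rose by 2.15 ± 0.18. Pigr, which carries immunoglobulin A into milk, fell, with 35.6, 38.4 and 44.8 CPM at day 28, against 279.6, 261 and 235 CPM at day 0 (-2.71 ± 0.16, adjusted p = 6.16e-09). Csn1s1, alpha-s1 casein, fell by 1.12, and Wap, whey acidic protein, was not called (-0.49 ± 0.43, adjusted p = 0.425). The caseins therefore did not move in 1 direction.

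Of 16 hormone-sensing genes, 3 rose (18.8%) and 7 fell (43.8%), beside 14.1% and 15.7% of all genes tested, with a median of -0.43. Wnt4, a progesterone-induced ligand, had 2.51, 1.69 and 2.54 CPM at day 28, against 10.1, 8.16 and 6.96 CPM at day 0 (-1.91 ± 0.24, adjusted p = 1.27e-05), and Tnfsf11, the ligand RANKL, fell by 1.04 from levels under 1 CPM. The receptors Esr1 (-0.06 ± 0.17) and Pgr (-0.38 ± 0.14) were not called. Msx2, a homeobox factor, rose by 1.08 ± 0.13. Of 15 general luminal genes, 2 rose (13.3%) and 3 fell (20%), shares not far from those of all genes. Cdh1, E-cadherin, had 407, 435 and 643 CPM at day 28, against 1060, 785 and 808 CPM at day 0 (-0.84 ± 0.17, adjusted p = 0.00108), and Cd24a, a surface marker of luminal cells, fell by 0.63.

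Basal and myoepithelial genes were mostly lower. Of 22 tested, 14 fell (63.6%) and 3 rose (13.6%), beside 15.7% and 14.1% of all genes tested, with a median of -0.95. Acta2, smooth muscle actin (ENSMUSG00000035783, chr19:34241090-34255590), had 66.8, 61.4 and 53.6 CPM at day 28, against 226, 251 and 255 CPM at day 0 (-2.01 ± 0.15, adjusted p = 3.75e-08). Krt17, a stress-induced basal keratin, had 75.5, 61.9 and 52.2 CPM at day 28, against 245, 246 and 227 CPM at day 0 (-1.92 ± 0.40, adjusted p = 0.00164). Trp63, the transcription factor of basal cells, fell by 0.63. The ligand Jag2 and the collagen Col4a1 fell by 1.94 and 1.91, with the replicate order of the long genes, and Krt14 was not called (-0.84 ± 0.34, adjusted p = 0.0709). Smooth muscle genes of the list were split. Tagln and Myh11 fell with Acta2, by 1.69 and 1.43, and Cnn1 was not called (-0.38, adjusted p = 0.19). Lmod1 had the largest of the 3 rises, at 1.90 (adjusted p = 2.09e-05), and Vim, the filament protein vimentin, rose by 0.71. The third was Oxtr, the oxytocin receptor, which rose by 1.13 ± 0.10. Of 23 squamous genes, 3 rose (13%) and 9 fell (39.1%). Krt6a, a keratin of stressed epithelium, had 5.13, 5.79 and 4.92 CPM at day 28, against 25.9, 18.1 and 20.7 CPM at day 0 (-2.03 ± 0.15, adjusted p = 3.79e-08). Klk6, a secreted protease, had 9.6, 15.7 and 10.3 CPM at day 28, against 1.67, 1.48 and 2.58 CPM at day 0 (2.64 ± 0.32, adjusted p = 8.82e-06).

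Several transcription factors of epithelial-mesenchymal transition rose. Snai1 had 4.75, 3.03 and 2.54 CPM at day 28, against 0.256, 0.514 and 0.24 CPM at day 0 (3.35 ± 0.40, adjusted p = 7.41e-06). Zeb1 had 0.542, 1.12 and 0.887 CPM at day 28, against 0.171, 0.112 and 0.109 CPM at day 0 (2.67 ± 0.43, adjusted p = 1.34e-04). Both repress Cdh1. Twist1 rose too, but stayed at or under 0.249 CPM in every library. Of the 15 genes tested, 6 rose (40%) and 4 fell (26.7%), beside 14.1% and 15.7% of all genes tested. Snai2 was among those that fell (-1.02 ± 0.17). Fn1, fibronectin, and Cdh2, N-cadherin, were not called (0.37 ± 0.36 and 0.21 ± 0.18). Of 14 fibroblast markers 9 were tested, 3 rose (33.3%) and 1 fell (11.1%), and most of their summed level was Postn, the matricellular protein periostin. Col1a1 and Dcn, of fibroblast matrix, stayed at or under 2.57 CPM in every library. The part of other cells in these differences was not tested.

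Of 27 matrix genes, 9 rose (33.3%) and 8 fell (29.6%), beside 14.1% and 15.7% of all genes tested. Thbs1, thrombospondin 1 (ENSMUSG00000040152, chr2:118111876-118127133), had 73.8, 93.9 and 152 CPM at day 28, against 922, 627 and 471 CPM at day 0 (-2.66 ± 0.27, adjusted p = 1.20e-06). The laminin and collagen chains of basement membrane and its anchors that fell included Lama3, Col4a1, Col4a2 and Col17a1, by 1.21 to 1.91. Timp3, an inhibitor of matrix proteases, rose by 1.34 ± 0.14. Without day 0 replicate 1, the 8 matrix genes that fell became 5. In the list of 16 TGF-beta and YAP response genes, 4 rose (25%) and 5 fell (31.2%). Ccn2, a matricellular protein, had 139.8, 112 and 122 CPM at day 28, against 68.4, 56.3 and 58.8 CPM at day 0 (1.03 ± 0.13, adjusted p = 9.43e-06), and Ankrd1, a nuclear ankyrin-repeat protein, rose by 1.17 ± 0.17, whereas Ltbp1, which anchors latent TGF-beta, and the ligand Tgfb2 fell by 1.13 and 0.96. The 4 rises of that list became 2 without day 28 replicate 3, day 0 replicate 2 or day 0 replicate 3.

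Of 19 WNT pathway genes none rose by edgeR (2 at an unadjusted p under 0.05, 1 by DESeq2) and 7 fell (36.8%). Over all genes tested 14.1% rose and 15.7% fell. The list median was -0.53. Axin2, a feedback target of canonical WNT signalling (ENSMUSG00000000142, chr11:108920349-108950783), had 1.42, 1.43 and 1.49 CPM at day 28, against 9.44, 7.4 and 6.09 CPM at day 0 (-2.40 ± 0.29, adjusted p = 7.12e-06). Rspo1, which amplifies WNT signalling, had 13.2, 10.3 and 10.6 CPM at day 28, against 30.2, 30.6 and 27.3 CPM at day 0 (-1.37 ± 0.19, adjusted p = 3.19e-05), and the inhibitor Nkd1 fell by 1.72. Among 16 NOTCH genes, 5 rose (31.2%) and 2 fell (12.5%). The ligand Dll1 had 112, 100.3 and 139 CPM at day 28, against 62.2, 51.2 and 40.7 CPM at day 0 (1.19 ± 0.21, adjusted p = 3.07e-04), while Jag1 and Jag2, also ligands, fell by 1.12 and 1.94. The receptors Notch1 (-0.81 ± 0.43), Notch2 (-0.94 ± 0.37) and Notch3 (-0.84 ± 0.42) were not called. The 5 rises became 3 without day 0 replicate 2, and the 2 falls became 5 without day 28 replicate 3 and 0 without day 0 replicate 1. Of 15 genes of inflammatory cell death, 3 rose (20%) and 4 fell (26.7%). Nlrp10, an NLR-family protein, had 1.24, 1.5 and 0.84 CPM at day 28, against 8.28, 9.03 and 8.68 CPM at day 0 (-2.85 ± 0.20, adjusted p = 2.99e-08).

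In metabolism, cholesterol genes were lower. Of 24 tested, 16 fell (66.7%) and none rose by edgeR, beside 15.7% and 14.1% of all genes tested. None rose at an unadjusted p under 0.05 or by DESeq2 either, and the median was -0.46. Stard4, which carries cholesterol between membranes, had 30.4, 41.2 and 39.4 CPM at day 28, against 84.5, 75.4 and 76.6 CPM at day 0 (-1.09 ± 0.14, adjusted p = 1.05e-05). Fatty acid genes gave 2 rises and 2 falls among 16 (12.5% each), shares not far from those of all genes. The malic enzyme Me1 rose by 1.06 ± 0.10 and the elongase Elovl6 fell by 1.09.

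Of 29 genes of hypoxia and glycolysis, 12 rose (41.4%) and 5 fell (17.2%), beside 14.1% and 15.7% of all genes tested. The list median was 0.33. Ndrg1, a stress-induced protein, had 529, 484 and 473 CPM at day 28, against 186, 193 and 228 CPM at day 0 (1.29 ± 0.10, adjusted p = 1.02e-07), and Adm, the vasodilator peptide adrenomedullin, rose by 2.54 ± 0.34. The glycolytic enzymes Pkm, Pfkp, Aldoa and Ldha rose by 1.11, 1.04, 0.87 and 0.45, and hexokinase Hk2 fell by 1.36. Vegfa was not called (-0.12 ± 0.14). Of 26 respiratory chain genes encoded in the nucleus, 0 were called by edgeR, beside 29.8% of all genes tested. Of these 26, 1 fell at an unadjusted p under 0.05 and 1 fell by DESeq2, and their median was -0.12. Among 21 NRF2 targets 5 rose (23.8%) and 3 fell (14.3%). Nqo1, a quinone reductase, had 268, 275 and 247 CPM at day 28, against 67.6, 85.9 and 74.7 CPM at day 0 (1.79 ± 0.11, adjusted p = 8.98e-09). Stress response genes gave 5 rises (20%) and 3 falls (12%) among 25, shares not far from those of all genes. Both serine synthesis enzymes listed, Phgdh and Psat1, fell by 1.87 and 1.15.

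Values at day 14 show when in the series the levels differed. Between day 28 and day 14, 3232 genes were called (17.3%), and between day 14 and day 0, 2180 genes (11.7%). Of 30 G2 and mitosis genes, 29 fell between day 14 and day 28, where 9.05% of all genes fell, with a median of -0.87. Between day 0 and day 14, 30 fell, where 6.49% of all genes fell, with a median of -0.79. Mki67 had 446, 330.5 and 380.0 CPM at day 0, 228, 201 and 153 CPM at day 14 and 89.6, 102 and 94 CPM at day 28, each day below the one before it. Spp1 had 205, 181 and 229.8 CPM at day 0, 1406, 1748 and 1825 CPM at day 14 and 3603, 3790 and 3108 CPM at day 28, each day above the one before it. Chad had 43.8, 62.4 and 43.7 CPM at day 14, and its change between day 14 and day 28 was not called (-0.04 ± 0.25, adjusted p = 0.947). Pde3a was lower at day 28 than at day 14, with 4.44, 4.96 and 4.26 CPM at day 14 (-0.79 ± 0.17, adjusted p = 0.00413).

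Klk6, Gfra3, Hp and Pglyrp3 were among the genes with the largest changes between day 14 and day 28. Klk6 had 0.527, 1.16 and 1.19 CPM at day 14, with a log2 fold change of 3.63 ± 0.34 from day 14 to day 28 (adjusted p = 2.84e-06) and of -0.99 ± 0.35 from day 0 to day 14 (adjusted p = 0.0819). Gfra3, a co-receptor for artemin, had 10.2, 7.52 and 10.1 CPM at day 28, against 0.967, 0.849 and 1.07 CPM at day 14 (3.26 ± 0.24, adjusted p = 2.08e-07). Hp, haptoglobin, had 497, 448 and 482 CPM at day 28, against 53, 91.1 and 83.1 CPM at day 14 (2.65 ± 0.21, adjusted p = 5.13e-07). Pglyrp3, a peptidoglycan-binding protein, had 1.29, 1.43 and 1.14 CPM at day 28, against 9.1, 9.23 and 7.31 CPM at day 14 (-2.73 ± 0.15, adjusted p = 7.95e-09). Fos had 607, 733 and 639 CPM at day 14 (-0.44 ± 0.18 from day 0, adjusted p = 0.147).

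**Figure D4:**
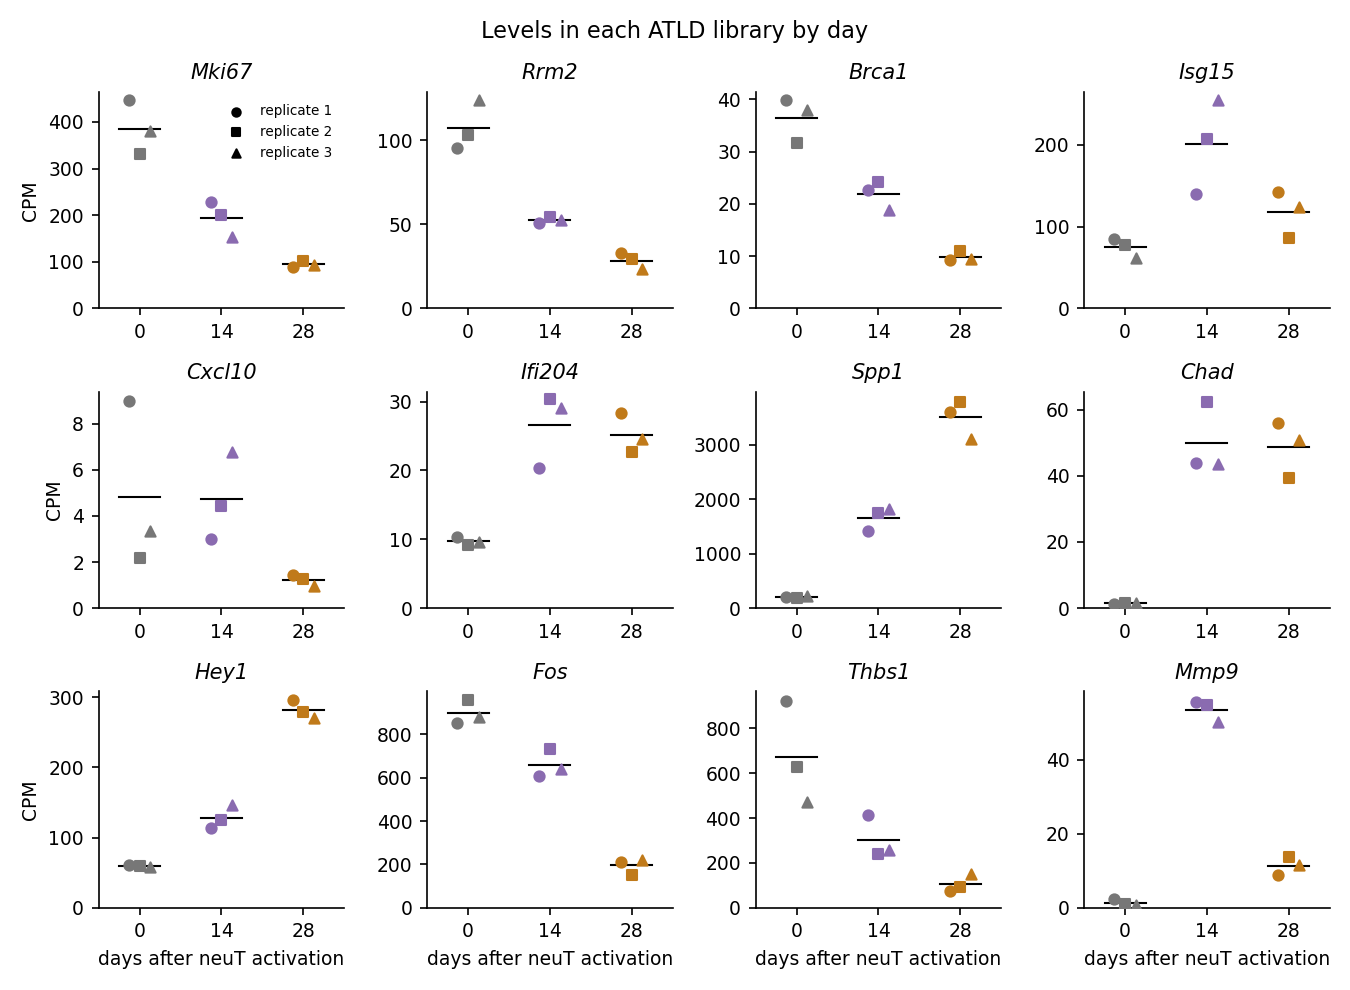
CPM (vertical axis) in the 9 ATLD libraries at days 0, 14 and 28 (horizontal) for 12 genes, 1 panel a gene, with markers by replicate and a bar at the mean of 3. Mki67, Rrm2 and Brca1 step down from day to day, Spp1 and Hey1 step up, and the mean of Isg15 is highest at day 14.

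The change in ATLD organoids was set against that in WT organoids by testing the difference of the 2 log2 fold changes. Of 18684 genes, 5134 were called (27.5%), 2513 with a positive difference (13.5%) and 2621 with a negative one (14%). This test uses the ATLD libraries of the comparison above and is not independent of it. In WT, day 28 against day 0 called 4621 genes (24.7%). Per the labels, WT replicate 1 was sequenced again beside the ATLD libraries because of a batch effect. Levels of the 2 genotypes are therefore not set against each other, only the changes within each. A fit that adds the resequenced runs and a batch term called 6031 genes.

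For all 30 G2 and mitosis genes the difference was called negative, as it was for 14% of all genes tested. The list median was -1.65 in ATLD and -0.15 in WT, where 1 gene fell. Mki67 had 291, 397 and 251 CPM in WT day 28 libraries, against 411, 399 and 345 CPM in WT day 0 libraries, and the difference between genotypes was -1.72 ± 0.24 (adjusted p = 3.55e-05). Of 39 break repair genes 25 had a negative and 1 a positive difference, beside 14% and 13.5% of all genes tested. Their medians were -1.10 in ATLD and -0.30 in WT. Brca1 had 29.6, 37.3 and 32.6 CPM in WT at day 28, against 45, 40 and 37.8 CPM in WT at day 0 (difference -1.58 ± 0.18, adjusted p = 3.85e-06).

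The lineage lists differed in the gap between their 2 medians. Among all genes tested, 13.5% had a called positive difference and 14% a called negative one. For 15 of 17 luminal progenitor genes the difference was positive, with medians of 0.70 in ATLD and -2.97 in WT. Csn3 was the largest positive difference among named genes at 9.17 ± 0.30 (adjusted p = 2.62e-12): it had 21.3, 24.4 and 25.1 CPM in WT at day 28, against 6612, 5675 and 5813 CPM in WT at day 0, whereas it rose in ATLD. Among 17 milk genes, 14 had a positive and 1 a negative difference, with medians of 0.18 in ATLD and -3.05 in WT. Basal genes gave 6 positive and 12 negative differences, with medians of -0.95 in ATLD and 0.41 in WT. Hormone-sensing genes gave 4 positive and 5 negative differences, with medians of -0.43 in ATLD and -0.09 in WT. For squamous genes the medians were -0.31 in ATLD and 1.53 in WT, and for hypoxia genes 0.33 in ATLD and 0.89 in WT, with 15 of 29 negative differences. Stra6, which fell in ATLD, had 3.25, 1.93 and 3.96 CPM in WT at day 28, against 0.0622, 0.234 and 0.189 CPM in WT at day 0 (difference -10.67 ± 0.83, adjusted p = 3.59e-08).

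Interferon-stimulated genes had a median of 0.04 in ATLD and 0.57 in WT. The difference was called positive for 2 and negative for 13 of 59, beside 13.5% and 14% of all genes tested. Taken in either direction, 27.5% of all genes tested were called. Isg15 had 44.2, 23.7 and 26.5 CPM in WT at day 28, against 11.8, 11.2 and 18.3 CPM in WT at day 0 (difference -0.54 ± 0.38, adjusted p = 0.334). For ERK feedback genes 8 differences were positive and 1 negative of 17, with medians of 0.52 in ATLD and -0.37 in WT. Immediate early genes gave 8 negative differences of 20, with medians of -0.58 in ATLD and -0.003 in WT. Not every large ATLD change had a called difference from WT. Chad had 55.7, 33 and 57 CPM in WT at day 28, against 1.04, 0.877 and 1.45 CPM in WT at day 0 (difference -0.42 ± 0.40, adjusted p = 0.493). The difference of Acsf2, 0.62 ± 0.23, was just over the threshold (adjusted p = 0.0526).

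**Figure D5:**
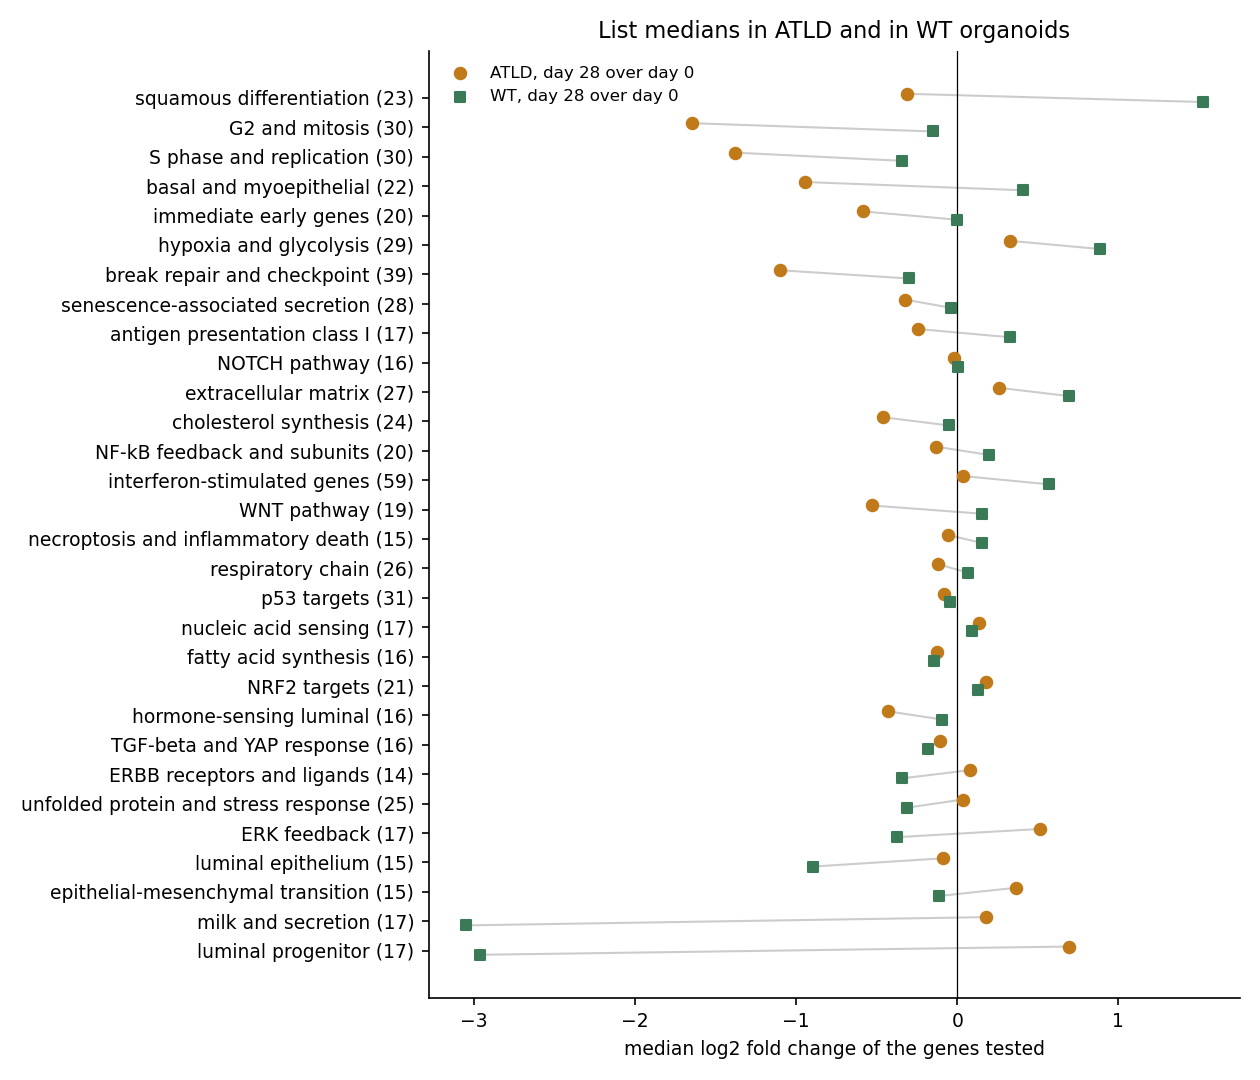
Median log2 fold change, day 28 over day 0, of gene lists with at least 14 tested genes (rows), as circles for ATLD and squares for WT. G2 and mitosis lies at -1.65 in ATLD and -0.15 in WT, and luminal progenitor genes at 0.70 in ATLD and -2.97 in WT.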

How the data were processed

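Polyadenylated RNA of the organoids, extracted with the miRNeasy kit, was made into TruSeq Stranded mRNA libraries, per the labels' protocols. The authors deposited whole-number read counts per gene. The submitters' processing notes name featureCounts, DESeq2 and the mm10 build. For tool versions, aligner and strand setting: not given in the sources used here. Gene length over merged exons, in bases, was deposited with the counts. All 55536 gene IDs matched GENCODE vM21 with equal start and end, and 36178 had a count.

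The analysis started from those counts. In edgeR 4.0.16 (R 4.3.3, limma 3.58.1), TMM factors, filterByExpr (count minimum 10, total minimum 15) and quasi-likelihood F tests were applied to 18 original libraries in 6 groups (12 residual degrees of freedom), two-sided, with Benjamini-Hochberg adjustment over 18684 genes and a threshold of 0.05. The fold changes use a prior count of 0.125. The fit was tested on simulated data. The resequenced runs entered only alternatives. Depths of 46331204 to 51757203 counts set the precision, and intervals cover counting error only.

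The 39 gene lists (768 distinct genes, 701 tested, 40 in 2 or more lists) and the libraries compared were chosen with earlier results of these data known. Named genes are Mre11a and Erbb2, the 12 largest rises and 12 largest falls among called genes with a mean of at least 1 log2 CPM, groups that do not overlap and a symbol that is no clone or predicted name, up to 4 called genes with the largest changes in each list, and the 5 largest in each direction in day 28 against day 14 and in the difference between genotypes. Alternatives were DESeq2 1.42.0, size factors by median of ratios, a table without a count filter, fewer or more libraries, GC content offsets (lowess span 0.3), a replicate block and leaving out each library. Offsets for GC content and gene length were added after the data were seen, as were all alternatives for day 14 against day 0. Some genes that this rule names are not reported here. RefSeq windows of GRCm38.p6 gave the promoter sequences.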

Additional observations from a re-analysis of the deposited data

Results flagged for a closer look

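The results below stand out because the change between day 28 and day 0 differed between ATLD and WT organoids, by the edgeR test of that difference, which called 5134 genes. The ATLD movers among them were chosen for their ATLD change, so their differences lean the same way. Among the largest ATLD rises the ATLD minus WT log2 difference was 2.35 for Pde3a, 7.89 for A2m, 0.96 for Spp1, 6.70 for Dmp1, 4.70 for Ckb, 7.12 for Them5, 2.67 for Maob, 1.40 for Mmp3, 3.71 for Itga7 and 5.09 for Ccn5. Among the largest ATLD falls it was -10.67 for Stra6, -3.33 for Fosb, -5.27 for Xylt1, -1.53 for Fbn2, -4.28 for Abcb1b, -5.21 for Cd109, -3.90 for Adh7, -1.68 for Sdk1, -3.66 for Tenm3 and -4.24 for Ildr2.

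Besides Stra6 and A2m, given above, the following genes were among those with the largest differences in either direction. Csn3 differed by 9.17, Cdh19, a cadherin of neural crest cells, by 8.70, Ankrd1 by 7.65 and Crispld2, a secreted protein, by 7.38. Stmn2, a tubulin-binding protein of neurons, differed by -9.68, Mgarp, a mitochondrial protein, by -9.42, Ndufa4l2, a hypoxia-induced mitochondrial protein, by -8.84 and Hmga2, a chromatin protein of embryonic cells, by -8.05. Cdh19 stood at 0, 0.0817 and 0 CPM in WT at day 28, against 10.9, 8.94 and 9.4 CPM in WT at day 0, and at 17, 20.7 and 19.5 CPM in ATLD at day 28, against 16.7, 16.8 and 17.6 CPM in ATLD at day 0.

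The lists below are those in which most tested genes had a called difference, in either direction, beside 27.5% of all genes. These were 30 of 30 G2 and mitosis genes, 27 of 30 S phase genes, 26 of 39 break repair genes, 18 of 28 genes of senescence-associated secretion, 9 of 17 ERK feedback genes, 15 of 17 luminal progenitor genes, 15 of 17 milk genes, 9 of 16 hormone-sensing genes, 18 of 22 basal genes and 16 of 23 squamous genes. They were also 17 of 29 hypoxia genes, 9 of 15 genes of epithelial-mesenchymal transition, 14 of 27 matrix genes, 9 of 16 TGF-beta and YAP response genes, 9 of 15 genes of inflammatory cell death, 3 of 5 myeloid genes and 7 of 10 Schwann and neural genes. Among the lists at or just under that limit were cholesterol genes with 12 of 24, stress response genes with 12 of 25 and class I genes with 8 of 17. NOTCH genes, with 6 positive and 2 negative differences of 16, and WNT genes, with 3 positive and 6 negative of 19, were also among them. The explanation of these differences was not tested.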

How the results depend on the processing

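Over 16 alternatives, 135 of the 149 named genes that were called kept their call in each alternative that tested them. Of 2406 values, 36 lost the call and none changed direction. A gene that did not enter the fit of an alternative gave no value there. Genes named only for day 28 against day 14 or for the genotype difference are not among the 149. The named genes were picked for large called changes in these same libraries, so this outcome was largely set in advance. The 5568 genes called at day 28 against day 0 ranged between 4478 and 5074 when each library was left out in turn, were 4108 with the replicate block and 6094 with the replicate block and GC content offsets, and were 7327 with GC content offsets alone. Day 28 against day 14, main count 3232, gave 5120 with GC content and gene length offsets, 1975 with the replicate block and 2202 to 2677 when a library was left out. Day 14 against day 0, main count 2180, gave 3427 with GC content offsets, 3657 with GC content and gene length offsets and 1629 to 1901 when a library was left out. The difference between genotypes, main count 5134, gave 4375 to 4976 when a library was left out, 6031 with a batch term and 4020 with the replicate block. The cause of these shifts was not tested. Same-numbered libraries of day 28 and day 0 had deviations correlated at -0.31, 0.03 and -0.23, and day 28 replicate 3 with day 0 replicate 1 at 0.41. Trends on gene length and GC content, which differ between libraries, also enter these deviations. They therefore cannot tell whether libraries of the 2 days are paired. In short lists some counts moved by over 1.5 times: the interferon-stimulated genes that fell ranged between 4 and 15, the p53 targets that fell between 5 and 13, the NF-kB genes that rose between 1 and 5 and that fell between 6 and 10, and the respiratory chain genes that fell between 0 and 6. With 3 libraries a group, genes near 1 CPM at these depths carry wide standard errors.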

Other observations

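Some gene groups were assembled after their values were seen, so the counts below describe them and support nothing. Mineralised matrix genes held 8 that rose (61.5%) and 2 that fell (15.4%) of 13, beside 14.1% and 15.7% of all genes tested. Besides Chad, Spp1 and Dmp1, Ogn, osteoglycin, had 8.41, 7.27 and 6.37 CPM in ATLD day 28 libraries, against 0.897, 0.827 and 0.764 CPM in ATLD day 0 libraries (3.14 ± 0.22), and Alpl, alkaline phosphatase, had 894, 752 and 1049 CPM at day 28, against 524, 430.0 and 488 CPM at day 0 (0.90 ± 0.17). Mgp, an inhibitor of mineralisation, fell by 1.54. Runx2, the transcription factor of bone formation, rose by 0.53.

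Genes of proton pumping and ionocytes held 8 that rose (72.7%) and 2 that fell (18.2%) of 11, beside 14.1% and 15.7% of all genes tested. Foxi1, the transcription factor of ionocytes, had 542.5, 510 and 496 CPM at day 28, against 119, 131 and 149.8 CPM at day 0 (1.95 ± 0.11, adjusted p = 5e-09). Atp6v1b1, a subunit of the vacuolar proton pump, had 1416, 1357 and 1351 CPM at day 28, against 529, 563 and 576 CPM at day 0 (1.31 ± 0.13). Cftr, a chloride channel, fell, with 0.633, 0.822 and 1.17 CPM at day 28, against 6.83, 6.35 and 6.11 CPM at day 0 (-2.88 ± 0.28).

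Retinoid genes held 3 that rose (15.8%) and 7 that fell (36.8%) of 19, beside 14.1% and 15.7% of all genes tested. The share that rose was thus not far from that of all genes. Aldh1a1, which makes retinoic acid, had 0.362, 0.4 and 0.49 CPM at day 28, against 3.22, 3.17 and 3.4 CPM at day 0 (-2.96 ± 0.20), and Aldh1a7 fell by 1.85. Cyp26b1, which breaks retinoic acid down, and the receptor Rara rose by 1.19 and 1.02. Among 27 cell cycle regulators, 13 fell (48.1%) and 2 rose (7.41%), beside 15.7% and 14.1% of all genes tested. E2f7, Mybl2 and Foxm1, transcription factors of dividing cells, fell by 2.14, 2.02 and 1.75. Rb1, the retinoblastoma gene, had 417, 480.2 and 484 CPM at day 28, against 197, 219 and 250.1 CPM at day 0 (1.05 ± 0.15).

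Of 79 genes of cytosolic ribosomal proteins, 43 fell and 0 rose by edgeR, where 15.7% and 14.1% of all genes tested did. Their median was -0.58, and all 79 fold changes were negative. Their summed level was 54310, 46866 and 43737 CPM at day 28, against 59836, 94258 and 65598 CPM at day 0. Day 0 replicate 2 was the highest, and without it 12 of the 79 fell, with a median of -0.36, while 28 fell without day 28 replicate 2 and 26 without day 28 replicate 3. Of 826 antisense genes 108 rose and 44 fell (18.4% called), and of 1148 processed pseudogenes 13 rose and 76 fell (7.8% called). Of all genes tested 29.8% were called. Where strand is not used in counting, antisense reads cannot be told apart from those of the gene they overlap, and pseudogene reads may come from the parent gene.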
